A study of Mus musculus with 12 samples.

Results

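Motile cilia and intraflagellar transport (IFT) were followed in the mouse choroid plexus (ChP) through 40 of the 24327 genes with usable symbols. Members were taken by symbol alone, as every gene named Dnah, Dnaic, Rsph, Tekt or Ift followed by a digit, together with Dnali1. This gave 26 motile-cilium genes (11 axonemal dynein heavy chains, 2 intermediate chains, 1 light intermediate chain, 7 radial spoke genes and 5 tektins) and 14 IFT genes, which are given apart because IFT also serves non-motile cilia.

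The cilium is built on an axoneme of microtubule doublets. In a motile cilium, dynein arms fixed to one doublet walk on its neighbour and bend the axoneme, radial spokes carry signals between the central pair and the arms, and tektins line the inside of the doublet. IFT trains carry building blocks to the tip and back: the IFT-B complex travels outwards with kinesin-2 and the IFT-A complex returns with dynein-2. ChP epithelial cells carry tufts of cilia on the face that meets the cerebrospinal fluid, and Foxj1 and RFX factors are known regulators of motile-cilium genes.

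The libraries came from lateral ventricle (LV) ChP of male mice heterozygous for Foxj1:Cre and for a floxed EGFP-L10a transgene, 8 weeks old by the methods and 60 days by the sample labels, fed ad libitum in a light-dark cycle and taken at 9 a.m. (2 h into light) or 9 p.m. (2 h into dark). All 4 groups carried both transgenes. Translating ribosome affinity purification (TRAP) pulled down RNA attached to the EGFP-tagged ribosomal protein RPL10A, and the supernatant held the RNA left unbound. Each of the 4 groups (TRAP or supernatant, 9 a.m. or 9 p.m.) had 3 libraries, each from the ChP of 3 mice pooled. The tag was aimed at ChP epithelial cells. Foxj1 is also active in other ciliated cells, and which cells carried the tag cannot be read from these libraries. RNA of cells without the tag stays in the supernatant, so unbound here means not captured on the tag. Between the fractions, a difference in cell type and a difference in ribosome binding cannot be told apart.

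Values are FPKM, read numbers scaled to transcript length and to library size, so that levels can be compared between genes. Per library, 6639 to 10540 genes exceeded 1 FPKM. The number of reads behind a value is unknown. Of 2940 abundant genes (median above 20 FPKM), between 0 and 107 were listed at 0 in a library, the most in TRAP 9 a.m. replicate 3, so a member is only said to be listed at 0. All 10 ChP epithelium markers exceeded 1 FPKM in every library.

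Levels of the members ran from listed at 0 to 454 FPKM in single libraries. Above 1 FPKM in all 12 libraries were 8 of 26 motile-cilium genes (Dnah6, Dnah9, Dnah11, Dnali1, Rsph1, Rsph4a, Rsph9 and Tekt1) and 7 of 14 IFT genes (Ift46, Ift74, Ift80, Ift81, Ift122, Ift140 and Ift172). Rsph6a and Tekt3 were listed at 0 in all 12, and the other 23 members lay between. Zeros made up 102 of 312 motile-cilium values and 9 of 168 IFT values. Over the whole motile-cilium group, summed FPKM ran from 402 to 939 with a median of 519, and radial spoke genes supplied 69.3% of it, tektins 12.1%, intermediate and light intermediate chains 10.5% and heavy chains 8.09%.

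**Figure D1:**
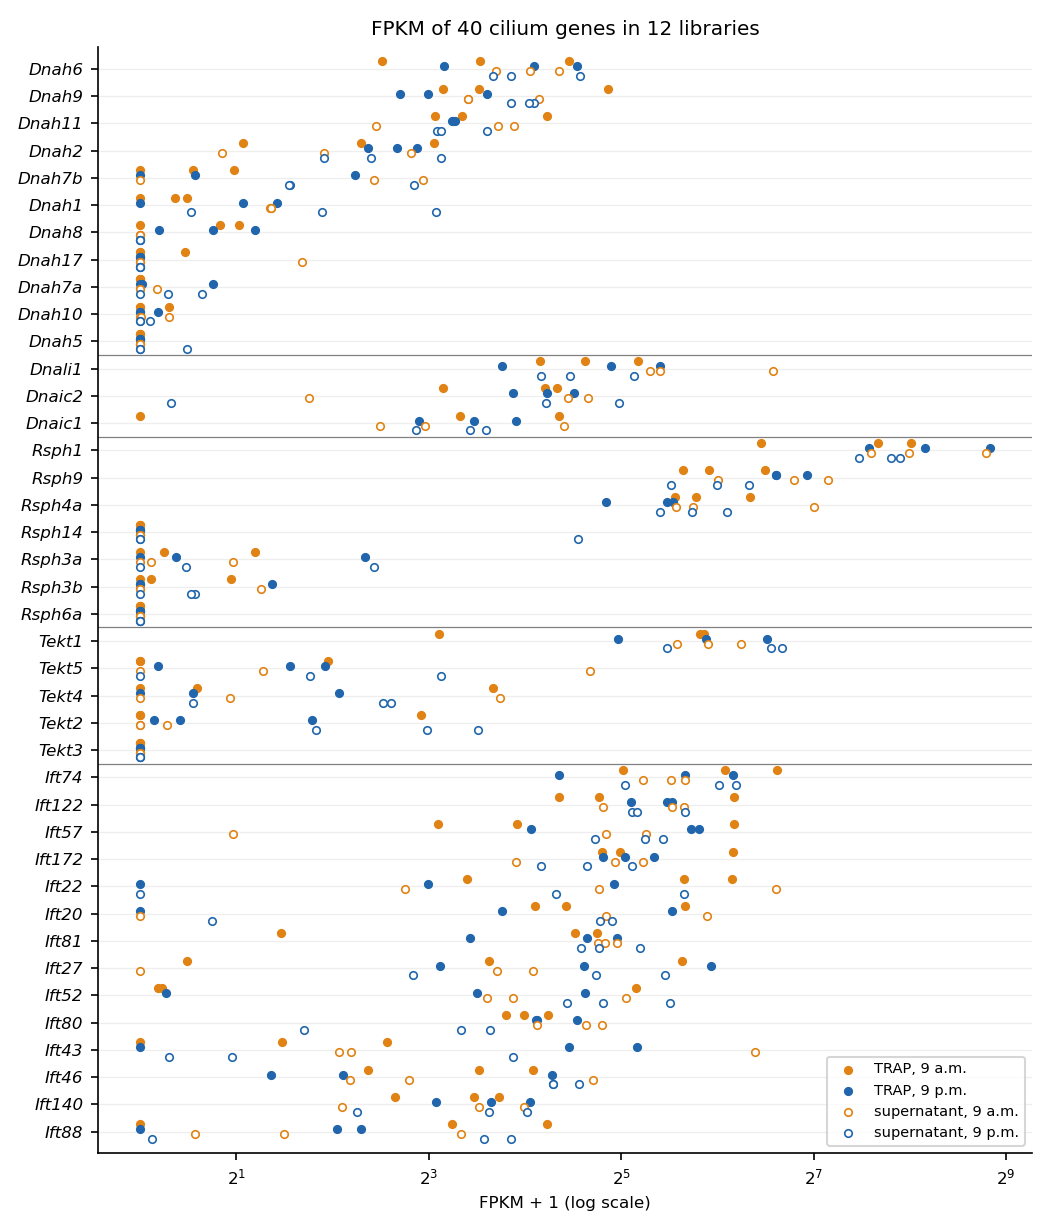
FPKM + 1 on a log axis for each of the 40 members, 1 point per library, with TRAP filled and supernatant open, morning in orange and evening in blue, and grey lines between heavy chains, other dynein chains, radial spoke genes, tektins and IFT genes. Rsph1 lay highest, Rsph6a and Tekt3 were listed at 0 in all 12 libraries, and the 4 groups overlapped in most rows.

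Of the heavy chains, the motor subunits, Dnah6, Dnah9 and Dnah11 had the highest levels. Dnah6, a chain of the inner arms, averaged 14.8 ± 5.78 FPKM (SD, n = 12 libraries over all groups). It measured 4.71, 20.9 and 10.6 FPKM in TRAP at 9 a.m., 7.90, 16.1 and 22.3 in TRAP at 9 p.m., 12, 15.6 and 19.4 in supernatant at 9 a.m. and 13.5, 22.8 and 11.7 in supernatant at 9 p.m. The groups overlapped throughout. Dnah9, an outer-arm chain, averaged 12.6 ± 6.06 FPKM, and its relative Dnah11 averaged 9.73 ± 3.50 FPKM. Those 3 neighbours in the order did not stand apart by more than the spread among libraries.

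Dnah5, the outer-arm chain that pairs with them, was listed at 0 in 11 libraries and had 0.404 FPKM in the remaining one, supernatant 9 p.m. replicate 3. Dnah9 in the same libraries ranged from 5.50 to 28.0 FPKM and Dnah11 from 4.48 to 17.7 FPKM. Other low chains were Dnah10 (highest library 0.229 FPKM) and Dnah7a (highest 0.683), neither of which exceeded 1 FPKM anywhere. The near-identical Dnah7b averaged 2.23 ± 2.44 FPKM, and reads of Dnah7a and Dnah7b may have been shared between them by the counting. Dnah2, an inner-arm chain, averaged 4.37 ± 2.26 FPKM and Dnah1, another, 1.56 ± 2.02 FPKM.

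Dnah8, best known as an outer-arm chain of the sperm flagellum, showed an uneven pattern across fractions and was singled out after its values were seen. It measured 0.781, 1.03 and 0 FPKM in TRAP at 9 a.m. and 0.694, 0.142 and 1.28 in TRAP at 9 p.m. It was above 0 in 5 of 6 TRAP libraries and in 0 of 6 supernatant libraries. Its mean lay below the 1 FPKM needed for testing. With no filter on low values, limma gave a log2 fold change of 0.67 for TRAP against supernatant (adjusted p = 0.475, unadjusted p = 0.00603). In GENCODE M21 an exon of the noncoding gene 1700097N02Rik overlaps it by 207 bases on the opposite strand, and that gene averaged 0 FPKM. Exons of the antisense gene AC165951.2 overlap it by 443 bases, also on the opposite strand, and no FPKM value was available for that gene. A part of antisense reads in the Dnah8 values was not tested.

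Of the smaller dynein chains, Dnali1, the light intermediate chain of inner arms, had the highest mean, 33.7 ± 21.6 FPKM. Its libraries read 23.6, 16.8 and 35.2 FPKM in TRAP at 9 a.m., 12.6, 28.7 and 41.3 in TRAP at 9 p.m., 94.5, 38.4 and 41.2 in supernatant at 9 a.m. and 21.1, 17.0 and 34.2 in supernatant at 9 p.m. Supernatant at 9 a.m. was the high group, and its lowest library lay above all TRAP 9 a.m. libraries and all supernatant 9 p.m. libraries. The outer-arm intermediate chains Dnaic2 and Dnaic1 averaged 16.1 ± 8.82 and 9.81 ± 5.85 FPKM, within the spread of the 3 highest heavy chains. Exons of Dnali1 and Gnl2 share 43 bases on opposite strands, those of Dnah11 and Cdca7l 642 bases and those of Dnaic1 and Enho 15 bases, and whether the counting used strand is not given in the sources used here.

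Radial spoke levels were dominated by the spoke head, from Rsph1 (mm10 chr17:31255019-31277383), Rsph9 (chr17:46122035-46144216) and Rsph4a (chr10:33905111-33916021). These genes made up 99.2% of the radial spoke sum, and Rsph1 with a mean of 250 ± 105 FPKM stood at the 99.0th percentile of genes above 0. Rsph1 measured 86.7, 257 and 202 FPKM in TRAP at 9 a.m., 454, 285 and 190 in TRAP at 9 p.m., 442, 254 and 192 in supernatant at 9 a.m. and 238, 176 and 223 in supernatant at 9 p.m. Its groups overlapped, and TRAP 9 a.m. replicate 1 was the low library.

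Rsph9 measured 89.1, 48.8 and 59.2 FPKM in TRAP at 9 a.m. and 121, 96.5 and 96.6 in TRAP at 9 p.m. In supernatant it measured 141, 110 and 63.2 at 9 a.m. and 79.5, 44.8 and 63.0 at 9 p.m. The TRAP libraries of the 2 times did not overlap, with 9 p.m. the higher, whereas the supernatant libraries overlapped. Rsph4a measured 80.2, 53.8 and 46.1 FPKM in TRAP at 9 a.m., 27.7, 45.6 and 43.6 in TRAP at 9 p.m., 127, 52.5 and 46.6 in supernatant at 9 a.m. and 41.4, 67.8 and 52.3 in supernatant at 9 p.m. Here the TRAP libraries separated in the other direction, by a narrow gap between 45.6 and 46.1 FPKM.

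Other spoke genes had few values above 0. Rsph14 was listed at 0 in 11 libraries and at 22.5 FPKM in supernatant 9 p.m. replicate 1, and that single library carried it past the filter. Rsph3a and Rsph3b, close copies whose reads may be shared, averaged 0.966 ± 1.57 and 0.409 ± 0.583 FPKM.

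**Figure D2:**
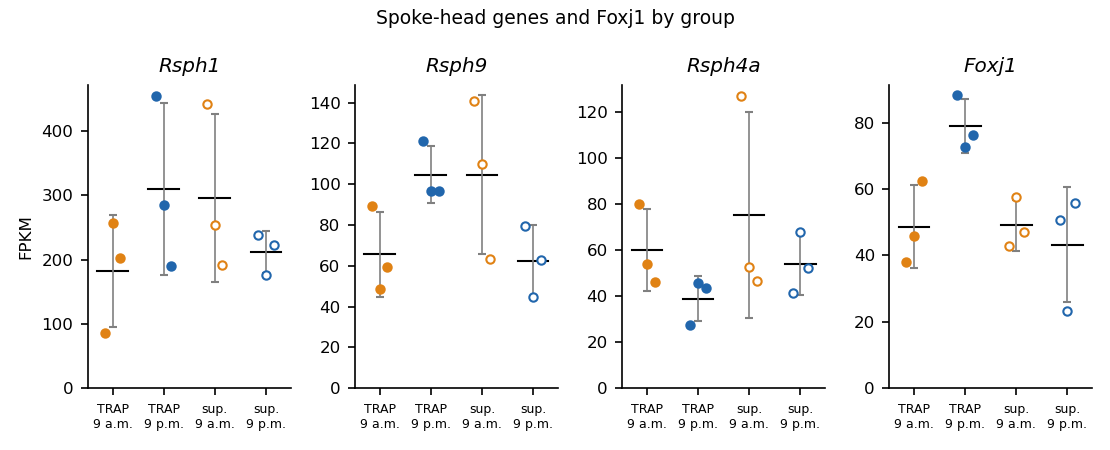
FPKM of Rsph1, Rsph9, Rsph4a and the regulator Foxj1 in each group, with points for libraries, black lines for the group means and grey bars for the SD of 3 libraries. In TRAP, Rsph9 averaged 65.7 FPKM at 9 a.m. and 105 at 9 p.m., Rsph4a 60.0 and 39.0, and Foxj1 48.7 and 79.1, with no overlap between the times for these genes, none of which passed the test.

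Among tektins, Tekt1 alone was present throughout, at 59.7 ± 27 FPKM. It read 55.5, 57.0 and 7.58 FPKM in TRAP at 9 a.m., 90.3, 58.0 and 30.3 in TRAP at 9 p.m., 46.8, 58.7 and 74.9 in supernatant at 9 a.m. and 93.3, 101 and 43.4 in supernatant at 9 p.m. The low value of 7.58 belongs to TRAP 9 a.m. replicate 3, the library with the most abundant genes at 0, where the other tektins were all listed at 0. Tekt5 averaged 3.65 ± 6.92 FPKM, Tekt4 3.29 ± 4.48 and Tekt2 2.46 ± 3.56, each with an SD above its mean. Tekt2 measured 0, 0 and 0.216 FPKM in supernatant at 9 a.m. but 6.90, 10.4 and 2.56 at 9 p.m. In TRAP it read 0, 6.55 and 0 at 9 a.m. and 0.336, 2.45 and 0.103 at 9 p.m., so the separation by time was seen in supernatant and not in TRAP.

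IFT genes were more even in level than motile-cilium genes. Ift74, an IFT-B core subunit that pairs with Ift81 to bind tubulin, was the highest at 52.8 ± 22.0 FPKM. Next came Ift122, an IFT-A core subunit, at 39.9 ± 13.9 FPKM and Ift57, a peripheral IFT-B subunit, at 32.2 ± 21 FPKM. Ift172 followed at 31.8 ± 14.2 FPKM, and successive members in this order did not differ by more than their SD. Lowest was Ift88, the gene whose hypomorphic allele causes polycystic kidney disease in mice, at 5.75 ± 6.01 FPKM. Summed IFT levels ranged from 193 to 464 FPKM with a median of 344.

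Several IFT subunits were unstable between replicate libraries. Ift52, an IFT-B core subunit, measured 0.133, 34.7 and 0.170 FPKM in TRAP at 9 a.m., 23.7, 10.3 and 0.207 in TRAP at 9 p.m., 13.7, 11.2 and 32.2 in supernatant at 9 a.m. and 27.1, 44.4 and 20.7 in supernatant at 9 p.m. In TRAP, 3 libraries lay below 1 FPKM and none of the supernatant libraries did. Ift22, a small GTPase of IFT-B, ranged from 0 to 96.8 FPKM and Ift20, the subunit also found at the Golgi, from 0 to 58.3 FPKM. Of the 9 IFT zeros, 4 fell in TRAP 9 p.m. replicate 3 and 2 in TRAP 9 a.m. replicate 3.

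Ift80 and Ift81 were steadier. Ift80, a peripheral IFT-B subunit, read 13, 17.9 and 14.9 FPKM in TRAP at 9 a.m., 16.5, 16.3 and 22.3 in TRAP at 9 p.m., 16.4, 23.8 and 26.9 in supernatant at 9 a.m. and 2.26, 11.4 and 9.09 in supernatant at 9 p.m., the low group. Ift81 measured 1.76, 25.9 and 22.0 FPKM in TRAP at 9 a.m. and 26.1, 30.1 and 27.5 in supernatant at 9 a.m., with the lowest value in TRAP replicate 1.

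Spread was on the whole smaller for longer transcripts. Over the 31 members with a mean above 1 FPKM, Spearman's rho between the longest annotated transcript and the SD of log2(FPKM + 1) within groups was -0.41, a correlation across genes that share libraries. The median SD was 1.31 for the 17 members under 3000 bases and 0.71 for the 14 longer ones. Between 5 and 100 FPKM the medians were 1.40 and 0.57 for 23 members, beside 1.57 and 0.90 for 7067 other genes in that range. Rsph9 and Rsph1, both short and abundant, had SDs of 0.43 and 0.61.

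**Figure D3:**
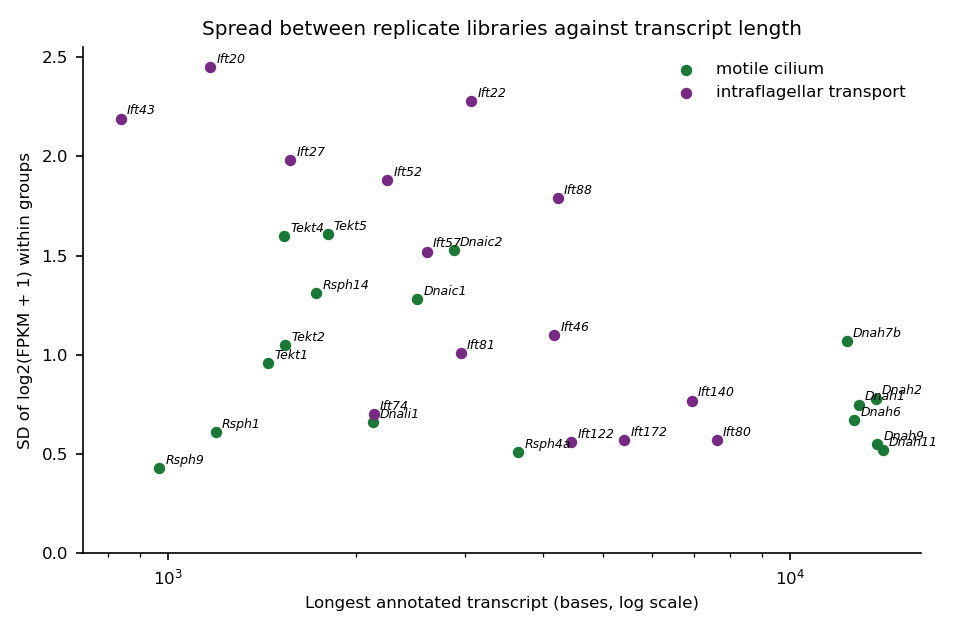
SD of log2(FPKM + 1) within groups against the longest annotated transcript in bases (log axis) for the 31 members with a mean above 1 FPKM, motile-cilium genes in green and IFT genes in purple. Heavy chains at the right lay at or below 1.07, while Ift20 (2.45), Ift22 (2.28) and Ift43 (2.19) had the largest spread.

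The first comparison asked whether the RNA on RPL10A ribosomes differed between light and dark. No member was called (adjusted p under 0.05 and absolute log2 fold change above 0.4, limma on log2(FPKM + 1)), and the background was 0 of 10563 genes (0%), although 418 genes had an unadjusted p under 0.05, none of them a member. Of 14 motile-cilium genes tested, 9 had a positive and 5 a negative fold change with a median log2 value of 0.37, which was 0.04 without TRAP 9 a.m. replicate 1 and 0.20 or 0.13 under other scalings. The 14 IFT genes split 8 to 6 with a median of 0.26, which was -0.09 without the same library and 0 with microRNA rows left out. Among the motile-cilium genes, Tekt2 passed the filter only through 9 a.m. and Tekt5 only through 9 p.m., which set their signs. Over all genes tested the split was 6009 to 4554 and the median 0.16. In these bulk samples, a change in the share of ciliated cells and a change in RNA per cell cannot be told apart.

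Libraries of the 2 times did not overlap for 2 members, beside 8.63% of all genes tested. Rsph9 had a log2 fold change of 0.70 (SE 0.38, 95% interval -0.14 to 1.54, limma adjusted p = 0.941), and Rsph4a one of -0.60 (SE 0.45, interval -1.58 to 0.38, limma adjusted p = 0.941). Both are spoke-head subunits, and they pointed in opposite directions. Rsph1 had 0.81 (SE 0.46, interval -0.19 to 1.82) with overlapping libraries. The IFT members with the lowest p were Ift22 at -2.43 (SE 1.18) and Ift20 at -1.63 (SE 1.19), whose intervals spanned 0. Standard errors of the members ranged from 0.38 to 1.61 with a median of 0.81, so a change of 2-fold (1 on this scale) was not detectable at the median member.

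In the unbound RNA, the same contrast of times gave no called member, with 1 of 11075 genes called in the background (0.00903%) and 363 at an unadjusted p under 0.05. Motile-cilium genes split 9 to 8 with a median log2 fold change of 0.02, and IFT genes 7 to 7 with 0.05, beside 5733 to 5342 and 0.03 over all genes. Tekt2 and Rsph14 passed the filter only through their 9 p.m. libraries, so their positive sign was set by it. Non-overlapping libraries were seen for 3 members, Tekt2, Dnali1 and Ift80, beside 8.70% of genes. Tekt2 had a log2 fold change of 2.68 (SE 1.06, interval 0.36 to 5.0, limma adjusted p = 0.970), Dnali1 -1.17 (SE 0.50, interval -2.27 to -0.07) and Ift80 -1.63 (SE 0.75, interval -3.27 to 0.01). Rsph9 had -0.70 (SE 0.40) and Ift27, a small GTPase of IFT-B, 1.74 (SE 1.14), both with overlapping libraries.

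TRAP and supernatant RNA were compared next, to ask how cilium transcripts were divided between the fractions. At 9 a.m. no member was called (absolute log2 fold change above 0.3), beside 5 of 10796 genes (0.0463%) and 486 at an unadjusted p under 0.05. Of 15 motile-cilium fold changes 10 were negative, with a median of -0.54, and IFT genes split 9 positive to 5 negative with a median of 0.23. Without supernatant 9 a.m. replicate 1 the first median was -0.26, and without supernatant 9 a.m. replicate 2 the second was -0.44, of the opposite sign. Among the motile-cilium genes, Dnah7b and Tekt5 passed the filter only through supernatant and Tekt2 only through TRAP. All genes had 4516 positive, 6280 negative and a median of -0.20. Dnali1 (-1.11, SE 0.54, interval -2.27 to 0.05) and Ift81 (-1.27, SE 0.85, interval -3.12 to 0.58) did not overlap between fractions, beside 10.1% of genes. Dnah1, too low to be tested at that time, did not overlap either, with 0.282, 0.4 and 0 FPKM in TRAP and 1.56, 1.55 and 1.56 in supernatant. Other low p-values belonged to Rsph1 (-0.75, SE 0.44), Rsph9 (-0.63, SE 0.42), Ift52 (-2.32, SE 1.33) and Ift43 (-2.20, SE 1.39), all with limma adjusted p = 0.886.

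At 9 p.m. no member was called, beside 3 of 10924 genes (0.0275%) and 620 at an unadjusted p under 0.05. Motile-cilium genes had 6 positive and 12 negative fold changes with a median of -0.26, and IFT genes 7 and 7 with -0.15, beside 5171, 5753 and -0.07 over all genes. Of the 12 negative values, those of Dnah1, Rsph14 and Tekt2 belong to genes that passed the filter only through supernatant, which set their sign, and with a mean above 5 FPKM the median was 0.10. No direction of the group is read from these counts. Non-overlapping libraries were found for 5 tested members, beside 11.9% of genes. Rsph9 (0.77, SE 0.35) and Ift80 (1.37, SE 0.75) had higher values in TRAP, and Tekt2 (-2.0, SE 1.05), Ift46 (-1.80, SE 0.86) and Dnah9 (-0.90, SE 0.67) lower ones. Ift46, an IFT-B core subunit, measured 3.32, 18.5 and 1.56 FPKM in TRAP and 22.6, 18.6 and 18.6 in supernatant. For these members limma adjusted p was 0.818 or 0.822.

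With both times in a single fit, 12 of 11156 genes were called (0.108%, 861 at an unadjusted p under 0.05) and no member was among them. Motile-cilium genes had 4 positive and 13 negative fold changes with a median of -0.35. Dnah1, Dnah7b and Rsph14, 3 of the negatives, passed the filter only through supernatant, which set their sign, so no direction of the group is read from this split. IFT genes had 7 and 7 with -0.03, and all genes 4822 and 6334 with -0.13. The TRAP and supernatant libraries of every member overlapped, beside 1.03% of genes that did not. Ift52 had the lowest p, with a log2 fold change of -2.22 (SE 0.88, interval -4.10 to -0.34, limma adjusted p = 0.601). Behind it came Dnah1 (-1.04, SE 0.57), Dnah7b (-1.16, SE 0.68), Ift81 (-0.89, SE 0.53) and Tekt1 (-0.71, SE 0.46), with limma adjusted p from 0.675 to 0.706.

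**Figure D4:**
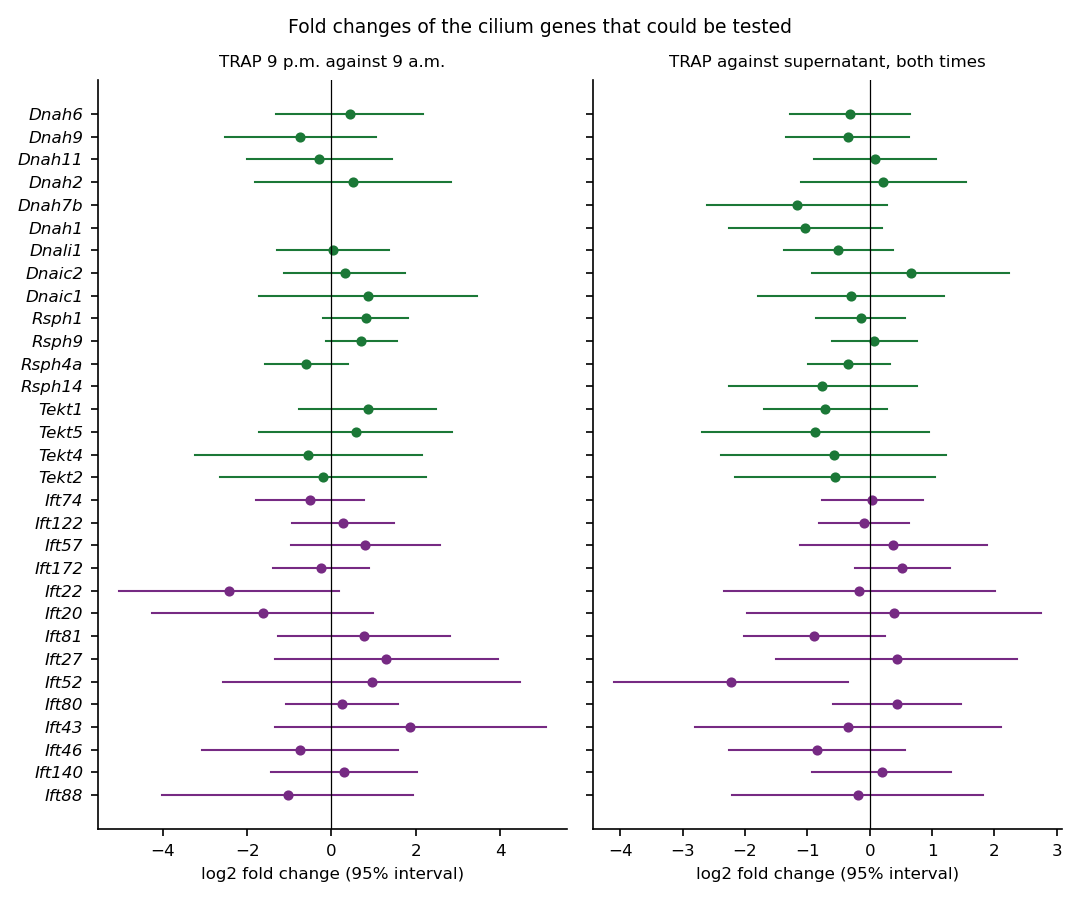
Log2 fold change with its 95% interval for each member tested, motile-cilium genes in green and IFT genes in purple, for TRAP at 9 p.m. against 9 a.m. and for TRAP against supernatant over both times. Rows without a point were not tested in that comparison. All intervals on the left span 0, and on the right that of Ift52 (-4.10 to -0.34) does not.

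Whether the change between times differed between TRAP and supernatant was tested as an interaction. It was called for 1 of 11156 genes (0.00896%, 429 at an unadjusted p under 0.05) and for no member. Rsph9, higher at 9 p.m. in TRAP and lower in supernatant by its means, had the lowest p among members, with a difference of log2 fold changes of 1.40 (SE 0.55, interval 0.23 to 2.57, limma adjusted p = 0.988). Ift80 had 1.88 (SE 0.87), Tekt2 -2.87 (SE 1.37), Rsph1 1.21 (SE 0.62) and Ift43 3.70 (SE 2.17), all with limma adjusted p = 0.988. The median was 0.23 for motile-cilium and -0.32 for IFT genes, beside 0.11 over all genes. Leaving out single libraries turned the sign of both medians, with ranges of -0.07 to 0.49 and -0.81 to 0.19.

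The other parts of the cilium machinery were described from 7 lists, and no gene of any was called in any of the 6 comparisons. Among 11 regulators, Foxj1, which switches on motile-cilium genes, averaged 55.0 FPKM and Rfx3 averaged 32.8, while Mcidas was listed at 0 in all libraries. Foxj1 measured 37.9, 45.8 and 62.4 FPKM in TRAP at 9 a.m. and 88.2, 72.7 and 76.3 at 9 p.m. These did not overlap, and the log2 fold change was 0.71 (SE 0.40, limma adjusted p = 0.941). Rfx3 had -0.64 (SE 0.52) in the same contrast and did not overlap either. It measured 46.3, 28.9 and 26.2 FPKM at 9 a.m. and 21.5, 24.8 and 16.7 at 9 p.m. Of 8 regulators tested in TRAP, 2 lay higher at 9 p.m. without overlap and 1 lower, beside 8.63% of all genes in either direction. In supernatant Rfx3 measured 41.3, 59.9 and 39.1 FPKM at 9 a.m. and 29.6, 25.8 and 33.4 at 9 p.m., also without overlap. Its log2 fold change there was -0.62 (SE 0.42), and 8.70% of all genes tested did not overlap. Foxj1 had -0.26 (SE 0.44) in supernatant, with overlapping libraries. For TRAP between times, the regulators split 6 to 2, dynein assembly factors 5 to 6, docking, ruler and nexin-link genes 8 to 3, central pair genes 2 to 4, other dynein chains 3 to 6, remaining IFT subunits and motors 12 to 4 and BBSome genes 7 to 2. Over all genes tested the split was 6009 to 4554, and no direction of a list is read from these counts.

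The 2 most abundant genes of each other list were Dynlrb1 (130 FPKM) and Dynlt3 (111 FPKM), light chains shared with cytoplasmic dynein, Wdr35 (48.2) of IFT-A, Spag6 (40.3) of the central pair, Lrrc48 (38.6) of the nexin link, Kif3b (33.4), a kinesin-2 motor, Arl6 (27), a GTPase that recruits the BBSome, Spef2 (21.1), Dnaaf5 (19.3), Gas8 (18.1), 9230110C19Rik (13.1) and Bbs4 (10.8). Lrrc48 measured 18.5, 20 and 0.197 FPKM in TRAP at 9 a.m., and 43.4, 45.4 and 41.7 at 9 p.m. Its log2 fold change was 2.50 (SE 0.99, interval 0.31 to 4.68, limma adjusted p = 0.941). Dynlrb1 had 3.23 (SE 1.37) and Arl6 2.10 (SE 0.89) in that contrast, with the same adjusted p. In TRAP, Dynlrb1 measured 37.3, 155 and 0 FPKM at 9 a.m. and 250, 179 and 108 at 9 p.m., so its libraries overlapped. Its 0 and the 0.197 of Lrrc48 both belong to TRAP 9 a.m. replicate 3, the library with the most abundant genes at 0. In supernatant Lrrc48 measured 33.5, 32.9 and 53.0 FPKM at 9 a.m. and 63.3, 55.4 and 55.3 at 9 p.m., also without overlap. Its log2 fold change there was 0.56 (SE 0.39), and 8.70% of all genes tested did not overlap. Dynlrb1 (-0.76, SE 0.48) and Arl6 (-1.70, SE 1.09) were negative in supernatant. For TRAP against supernatant over both times, docking, ruler and nexin-link genes split 2 positive to 9 negative, with a median of -0.55. Central pair genes split 1 to 6 with -0.50, and all genes tested 4822 to 6334 with -0.13. Genes that pass the filter only through supernatant have their sign set by it, and no direction is read from these splits.

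Markers of other ciliated and non-epithelial cells were read beside these values. Ependymal cells are also multiciliated. Their markers Ccdc153 and Tmem212 were both listed at 0 in 9 of 12 libraries. Ccdc153 reached 21 FPKM in supernatant 9 a.m. replicate 1, which also had the highest motile-cilium sum (939 FPKM), and Rsph4a, Rsph9 and Dnali1 had their highest values there too. The whole list of 10 ependymal markers summed to 21.9 to 156 FPKM in TRAP and 111 to 375 in supernatant at 9 a.m., and to 89.0 to 452 and 103 to 292 at 9 p.m. Its highest sum, 452 FPKM, was in TRAP 9 p.m. replicate 2, where Ccdc153 and Tmem212 were at 0 and the motile-cilium sum was 592. In supernatant 9 a.m. replicate 1 the whole list summed to 375 FPKM. That list includes Dynlrb2, a dynein chain also counted among the other dynein chains. It supplied 219 of the 452 FPKM and 125 of the 375 FPKM, so the list is not independent of cilium genes. The part of ependymal cells in the member values was not tested. Without supernatant 9 a.m. replicate 1, the median fold change of motile-cilium genes for TRAP against supernatant at 9 a.m. was -0.26 in place of -0.54.

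Liver-type markers (5 genes) summed to 1211 FPKM in TRAP 9 a.m. replicate 3, the library with the low Tekt1 value, and to 2.03 to 196 FPKM in the others. Erythroid markers (3 genes) summed to 42.2, 106 and 11.3 FPKM in supernatant at 9 p.m. and to 1.09, 0 and 0 in supernatant at 9 a.m., so they separated by time in the contrast where Tekt2, Dnali1 and Ift80 did not overlap, and were at most 0.01 FPKM in TRAP. Their part in those values was not tested. Fibroblast markers (6 genes) summed to 5.97 to 21.9 FPKM in TRAP and 31.5 to 89.3 in supernatant, with no overlap. ChP epithelium markers (10 genes) summed to 39150, 54053 and 49347 FPKM in TRAP at 9 a.m. and 72844, 68957 and 54907 at 9 p.m. The TRAP times did not overlap, by a narrow gap between 54053 and 54907. By gene, 7 markers had a positive and 3 a negative log2 fold change there, with a median of 0.07. In supernatant the sums were 53161, 44822 and 39842 at 9 a.m. and 49771, 41248 and 46473 at 9 p.m., with overlap. The part of this marker shift in the member values was not tested. The motile-cilium sum averaged 450 ± 66.4 FPKM in TRAP at 9 a.m., 615 ± 143 in TRAP at 9 p.m., 681 ± 226 in supernatant at 9 a.m. and 532 ± 61.3 in supernatant at 9 p.m. (SD, n = 3 each), with overlap between the supernatant groups and between the TRAP groups.

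**Figure D5:**
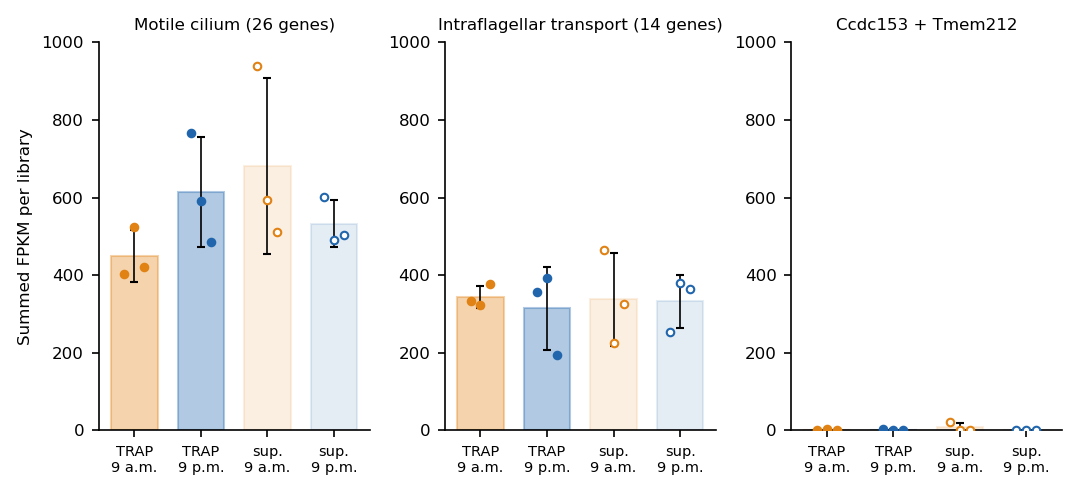
Summed FPKM per library of the 26 motile-cilium genes, the 14 IFT genes and the ependymal markers Ccdc153 and Tmem212, with bars for group means, error bars for the SD of 3 libraries and points for libraries. Motile-cilium sums lay between 402 and 939, IFT sums between 193 and 464, and the marker pair between 0 and 21. The pair is 2 of the 10 listed ependymal markers, which together summed to 21.9 to 452.

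Promoter sequence was examined because RFX factors bind X-box motifs in ciliary genes and Foxj1 binds a forkhead core, and both Rfx3 and Foxj1 were expressed. RefSeq promoters (GRCm38.p6, from 250 bases before to 50 after the start) matched 35 of 40 members. GTTGCCA, an X-box arm, was present on either strand in 5 of 35 (14.3%), beside 5.02% of 27025 genes. GTAAACA, the forkhead core, was present in 2 of 35 (5.71%, Dnah17 and Tekt3), beside 4.05%. The 5 X-box matches are printed with 30 bases of the gene's strand and the match in capitals, which appears as TGGCAAC where it lies on the opposite strand.
Tekt1 (chr11:72361879-72361908, gene on the minus strand): gcgtccgtccgGTTGCCAtagagaccgcag
Dnah7b (chr1:46066679-46066708, plus strand): acaggagcacaGTTGCCAcccacccttaag
Dnah10 (chr5:124725084-124725113, plus strand): ctagggtcgccGTTGCCAcggacgcccgcc
Ift27 (chr15:78174072-78174101, minus strand): ggttgatgatgGTTGCCAggagcctgtttg
Ift88 (chr14:57424080-57424109, plus strand): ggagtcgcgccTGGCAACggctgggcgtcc

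These 5 genes had mean levels from 0.056 to 59.7 FPKM, with Tekt1 at 59.7 FPKM and Ift27 at 21.2 FPKM above Ift88 at 5.75, Dnah7b at 2.23 and Dnah10 at 0.056 FPKM. Rsph1, the highest member, had no GTTGCCA in its window. A match describes letters only, and binding was not measured in these samples.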

How the data were processed

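The authors aligned 50-nt single-end reads of ribodepleted SMARTer Pico libraries to mm10 with STAR 2.4.0 (per the submitters' processing notes) and deposited Cuffquant FPKM for 12 libraries, with 3 per group. For the Cufflinks version, the annotation and strand use: not given in the sources used here. FPKM was not converted to counts, so depth is unknown. Of 24354 rows, 27 symbols turned into dates were dropped. MicroRNA gene rows took 31.9% to 75.4% of the FPKM sum of a library.

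Log2(FPKM + 1) of genes with a mean above 1 FPKM was fitted with limma 3.58.1 (R 4.3.3, intensity trend), with Benjamini-Hochberg adjustment over all genes tested, and the script was tested on simulated data. Calls required an adjusted p below 0.05 together with a log2 change past 0.4 (times, interaction) or 0.3 (fractions) in either direction, thresholds taken from the study's methods. Times were compared within each fraction, fractions at each time and, with time as covariate, over 12 libraries. An exact permutation test of 3 against 3 cannot go below p = 0.1 and was not used. Alternatives were another pseudocount, filter, scaling, variance model or library set, a replicate block and leaving out each library.

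The members and lists were chosen with earlier results of these data known. Named were the 3 most abundant members of each subgroup, the 3 motile-cilium and 2 IFT members with the lowest p per comparison, the 2 non-overlapping members with the largest fold change, and the 2 most abundant genes of each list. Other members were named for their values. Libraries share replicate numbers across groups. Deviations from group means correlated at -0.075 to -0.014 between same-numbered libraries of the 2 fractions and -0.007 to 0.104 between times, so the numbers were not used as pairs. Coordinates and transcript lengths are from GENCODE M21 (GRCm38) and promoters from RefSeq.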

Additional observations from a re-analysis of the deposited data

How the results depend on the processing

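No member was called under any of the 15 alternatives to each comparison within 1 time or fraction, or the 20 alternatives to each fit of 12 libraries. The lowest adjusted p of any member was 0.67 for TRAP between times, 0.855 for supernatant between times, 0.58 at 9 a.m. and 0.726 at 9 p.m. between fractions, 0.297 between fractions over both times (Ift52, without TRAP 9 a.m. replicate 2) and 0.84 for the interaction. None of the 510 values of single members under an alternative reversed a call. Of 300 counts and medians, 286 stayed within tolerance (1.5 times for a count, for a median 1 SD between libraries of the members' mean log2 value) and 14 medians moved further. The counts were of called members and were 0 throughout, and medians under the replicate block could not move. The 286 is therefore no measure of how stable the medians were. With a mean FPKM above 5, the motile-cilium median was -0.35 for supernatant between times, 0.10 between fractions at 9 p.m. and 0.65 for the interaction. At 9 a.m. between fractions it was -0.18 with no filter and -0.26 with quantile normalization. Leaving out 1 library gave motile-cilium medians of 0.04 (without TRAP 9 a.m. replicate 1) to 0.50 for TRAP between times, -0.65 to -0.26 (the latter without supernatant 9 a.m. replicate 1) between fractions at 9 a.m. and -0.07 (without supernatant 9 a.m. replicate 2) to 0.49 for the interaction, which turned negative also without TRAP 9 a.m. replicate 3, TRAP 9 p.m. replicate 3 or supernatant 9 p.m. replicate 2. For IFT genes between fractions at 9 a.m. the range was -0.44 (without supernatant 9 a.m. replicate 2) to 0.42, and the IFT median also took either sign in the other comparisons except supernatant between times. The cause was not tested. Rescaling moved the median of all genes for TRAP between times from 0.16 to -0.02 (quantile) or -0.06 (microRNA rows left out), and the motile-cilium median to 0.20 or 0.13.

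With the replicate block, 0 members were called in every comparison. The design is balanced, so the block cannot alter fold changes, only their errors. The medians of 0.37 (motile cilium) and 0.26 (IFT) for TRAP between times were therefore the same by construction. Over all genes the block gave 1 higher and 2 lower calls between fractions at 9 p.m. in place of 0 and 3, 0 and 6 over both times in place of 2 and 10, and 2 in place of 1 for the interaction. Without counts, the depth behind low members cannot be stated.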
